A study of Mus musculus with 38 samples.

Results

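The enzymes that turn farnesyl diphosphate into cholesterol by way of squalene were followed in mouse liver through 9 genes, Fdft1, Sqle, Lss, Cyp51, Msmo1, Nsdhl, Hsd17b7, Sc5d and Dhcr7. They were chosen by name, as 9 of the genes of these steps, among 17729 genes tested on 38 arrays. The array carries 22 probe sets annotated to these symbols. Each gene was read by its probe set with the highest mean, and all 9 of these stood above background on all 38 arrays. The livers came from male CD-1 mice, an outbred stock, with 1 array per animal. Their age is given as 6 to 8 weeks for every group and not separately by day. A difference in age between the days cannot be told apart from the time on the diet. In the conazole experiment, feed carried triadimefon at 1800 ppm (an average intake of 257.1 ± 33.5 mg/kg/day) or propiconazole at 2500 ppm (349.6 ± 46.7 mg/kg/day), or was control feed, with 3 animals per group. In the phenobarbital experiment, feed carried phenobarbital at 850 ppm (97.2 ± 5.9 mg/kg/day) or was control feed, with 5 animals per group. Every diet was given for 4 or 30 days, which makes 10 groups, and each experiment had its own controls, so the experiment and the array batch are confounded and cannot be told apart.

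Cholesterol is built from acetyl-CoA by way of mevalonate and squalene, and squalene is closed to lanosterol, the first sterol. Lanosterol then loses methyl groups, and Cyp51, a cytochrome P450, removes the first of them. When sterol in the endoplasmic reticulum is low, the factor SREBP2 is carried to the Golgi, cleaved and sent to the nucleus, where it raises transcription of nearly the whole pathway. Propiconazole and triadimefon are agricultural fungicides made to inhibit the fungal enzyme that corresponds to Cyp51. Both carry a triazole ring. Propiconazole joins it to a dichlorophenyl group and a dioxolane ring, and triadimefon to a chlorophenoxy group and a ketone with a tert-butyl group. Phenobarbital is a barbiturate and the compound commonly used to switch on CAR, a nuclear receptor, in rodents.

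Levels are log2 of the quantile-normalized intensity plus 16, and a change is a difference of such levels with its standard error. Adjusted p-values are from limma with Benjamini-Hochberg adjustment over all 17729 genes, and a gene is said to rise or fall only where this value is under 0.05. Background was 6.13 on this scale. The CAR target Cyp2b10 rose under each compound, by 4.43 ± 0.45 under triadimefon, 4.80 ± 0.45 under propiconazole and 3.56 ± 0.35 under phenobarbital at day 4. Of 6 hepatocyte markers, 0 were called for any compound on either day (at an unadjusted p under 0.05, 0 for triadimefon and 1 for each other compound on each day), and all 6 were above background on every conazole-experiment array. Replicate 2 of propiconazole day 4 stood apart from the other 37 arrays. Its Gapdh probe sets read 6.39 higher at the 3′ end than at the 5′ end, against -0.37 to 0.22 elsewhere, and its deposited median of 12.5 was the lowest. Propiconazole results of day 4 that move with it are also given without it.

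At day 4 of triadimefon, 6 of the 9 enzymes rose and 0 fell. The 6 were Fdft1, Sqle, Lss, Cyp51, Msmo1 and Dhcr7, by 0.96 to 1.45 on the log2 scale. Over all genes tested, 2.1% were called higher and 3.75% in either direction. The median change of the 9 was 0.99, against 0 over all genes. For 8 of the 9, every triadimefon liver stood above every control liver, as was so for 10.5% of all genes. In bulk liver, fewer cells of a type and less RNA per cell cannot be told apart. Propiconazole at day 4 raised 3 of the 9, Sqle, Msmo1 and Dhcr7, and lowered 0, where 7.36% of all genes were higher and 13.9% were called either way. For 4 of the 9, all propiconazole livers were above all control livers, as for 9.37% of all genes.

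Sqle, squalene epoxidase, adds oxygen to squalene and is a rate-limiting step of the branch. Its level at day 4 was 11.35, 11.13 and 10.40 in triadimefon livers, 10.61, 11.57 and 10.41 in propiconazole livers, and 9.98, 9.21 and 9.35 in control livers. Every treated liver was above every control. The change was 1.45 ± 0.30 under triadimefon (a 2.73-fold higher value, adjusted p = 0.0063). Under propiconazole it was 1.35 ± 0.30 (2.55-fold, adjusted p = 0.0034), and 0.997 ± 0.31 (adjusted p = 0.041) without replicate 2, the animal with the highest Sqle level.

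Fdft1, squalene synthase, joins farnesyl diphosphate molecules to squalene at the entry to the branch. At day 4 it read 11.05, 11.09 and 10.58 in triadimefon livers, 10.33, 9.73 and 9.99 in propiconazole livers, and 10.02, 9.99 and 9.74 in control livers. The triadimefon livers lay above all others and the propiconazole livers overlapped the controls. Fdft1 rose by 0.99 ± 0.25 under triadimefon (adjusted p = 0.025), and under propiconazole the difference from control was 0.10 ± 0.25 (adjusted p = 0.87), and 0.24 ± 0.28 without replicate 2.

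Lss, lanosterol synthase, closes squalene epoxide to lanosterol. Its level was 10.37, 10.31 and 9.64 in triadimefon livers, 9.02, 9.86 and 8.98 in propiconazole livers, and 9.04, 8.84 and 8.95 in control livers. Among propiconazole animals only replicate 2 was above the controls. Triadimefon raised Lss by 1.16 ± 0.32 (adjusted p = 0.038). The propiconazole difference was 0.34 ± 0.32 (adjusted p = 0.53), and 0.06 ± 0.35 without replicate 2.

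Cyp51, the lanosterol demethylase and the mammalian counterpart of the fungicides' target, read 10.42, 10.82 and 10.45 in triadimefon livers, 9.97, 10.90 and 9.95 in propiconazole livers, and 9.94, 9.44 and 9.42 in control livers. All treated livers were above the controls, but under propiconazole replicates 1 and 3 exceeded the highest control by little. Cyp51 rose by 0.96 ± 0.25 under triadimefon (1.95-fold, adjusted p = 0.023). Under propiconazole the change of 0.68 ± 0.25 did not pass (adjusted p = 0.062), and without replicate 2 it was 0.37 ± 0.25 (adjusted p = 0.41).

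Msmo1, Nsdhl and Hsd17b7 act together to remove the remaining methyl groups next to the sterol's hydroxyl group. Msmo1, the methyl sterol oxidase, read 12.09, 12.04 and 11.44 in triadimefon livers, 11.54, 11.84 and 11.18 in propiconazole livers, and 11.08, 10.61 and 10.81 in control livers. No treated liver overlapped the controls. Msmo1 rose by 1.02 ± 0.23 under triadimefon (adjusted p = 0.011) and by 0.68 ± 0.23 under propiconazole (adjusted p = 0.044; 0.53 ± 0.25 and 0.21 without replicate 2). Nsdhl, the sterol dehydrogenase of the complex, was 10.48, 11.07 and 10.36 in triadimefon livers, 9.89, 10.31 and 10.61 in propiconazole livers, and 10.21, 10.17 and 9.99 in control livers, with changes of 0.52 ± 0.23 under triadimefon, with no overlap (adjusted p = 0.21), and 0.15 ± 0.23 under propiconazole (adjusted p = 0.73). Hsd17b7, its ketosteroid reductase, was 9.81, 9.53 and 9.21 in triadimefon livers, 8.43, 8.28 and 9.11 in propiconazole livers, and 8.91, 8.52 and 8.67 in control livers. The triadimefon change of 0.81 ± 0.27 missed the threshold (adjusted p = 0.088) although its animals did not overlap the controls, and the propiconazole change was -0.09 ± 0.27 (adjusted p = 0.89). Without propiconazole replicate 2 that sign turned, to 0.07 ± 0.30.

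Sc5d and Dhcr7 finish the sterol rings, Sc5d as a desaturase and Dhcr7 as the reductase that makes cholesterol itself. Dhcr7 read 10.80, 11.15 and 10.49 in triadimefon livers, 10.38, 10.78 and 10.42 in propiconazole livers, and 10.01, 9.84 and 9.60 in control livers, again with no overlap. It rose by 0.996 ± 0.24 under triadimefon (adjusted p = 0.017) and by 0.71 ± 0.24 under propiconazole (adjusted p = 0.047; 0.58 ± 0.27 and 0.19 without replicate 2). Sc5d was 11.26, 12.22 and 11.58 in triadimefon livers, 11.11, 11.39 and 11.04 in propiconazole livers, and 11.37, 11.18 and 11.06 in control livers. Its groups overlapped, and the changes were 0.49 ± 0.31 (adjusted p = 0.43) and -0.02 ± 0.31 (adjusted p = 1), the second being -0.13 ± 0.35 without propiconazole replicate 2.

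**Figure D1:**
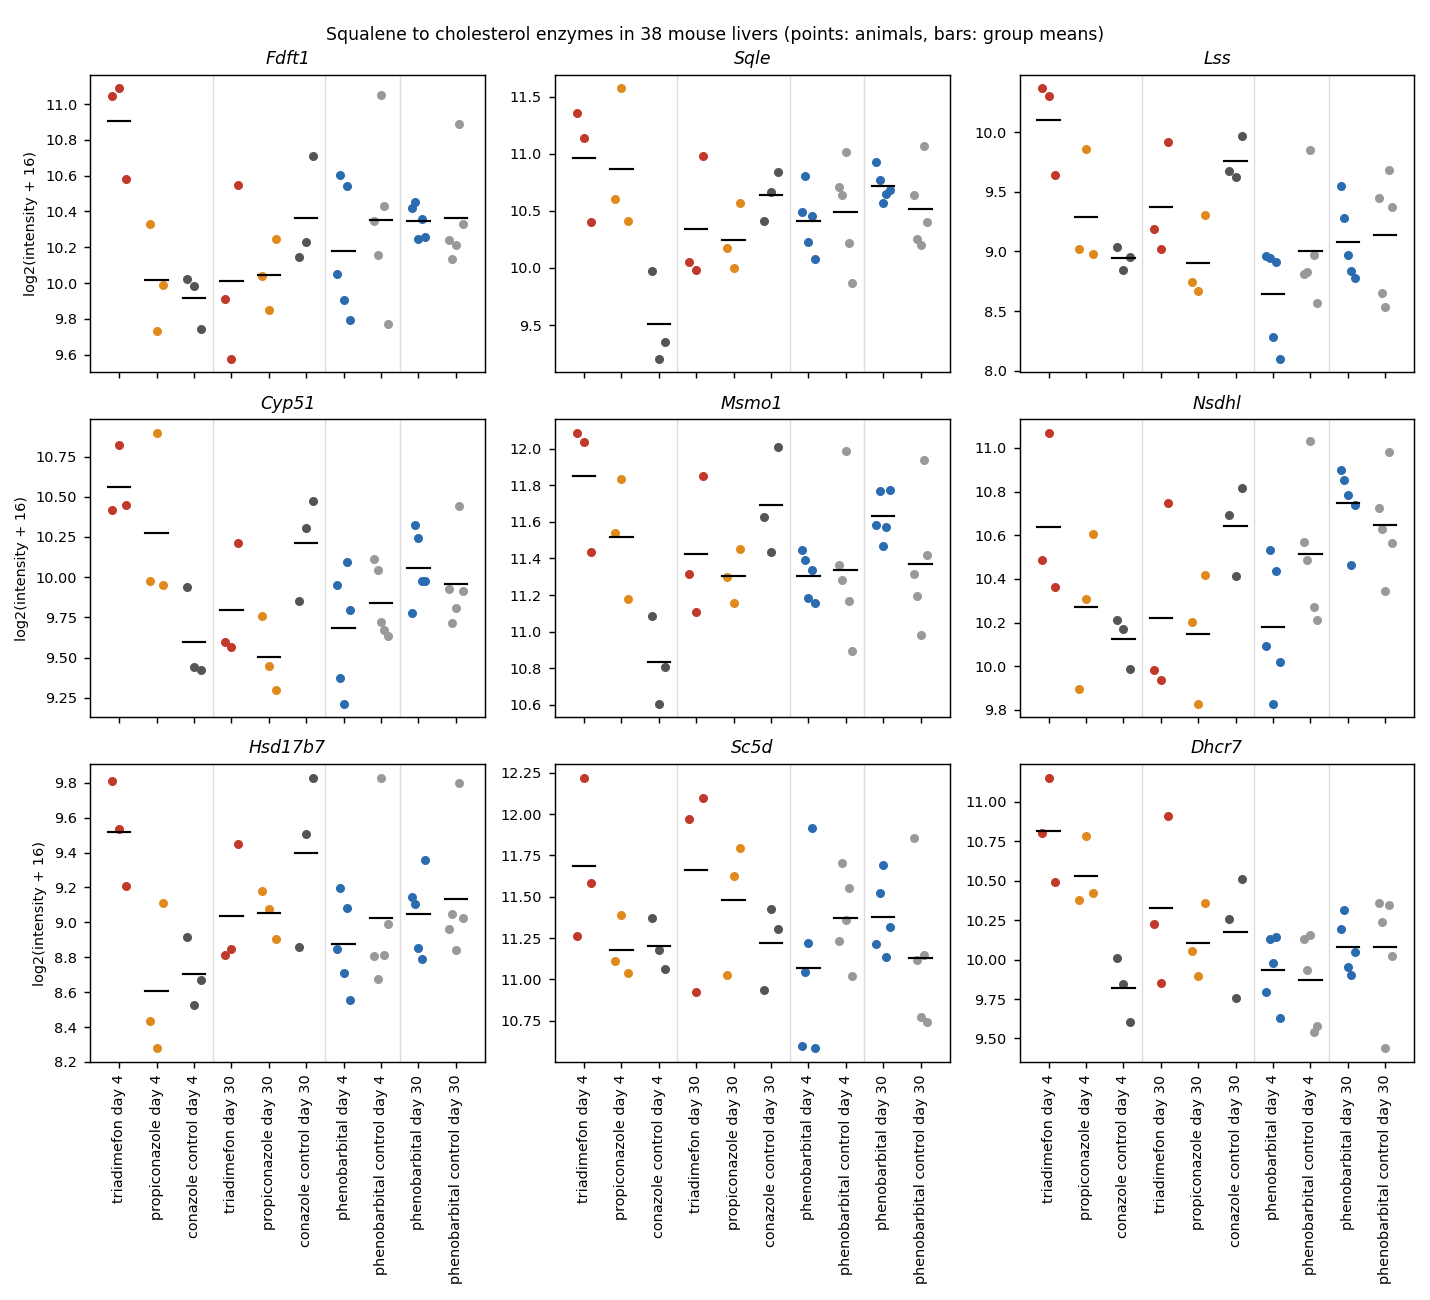
Level of each of the 9 enzymes (log2 of intensity plus 16, vertical axes differ by panel) in the 38 livers, by group along the horizontal axis. Points are animals and black bars are group means. For Sqle the 3 triadimefon and 3 propiconazole livers of day 4 all lie above the 3 control livers.

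Within a group, the same animals tended to be high or low for most of the enzymes. Of the 3 triadimefon livers at day 4, replicate 3 was the lowest for 7 of 9 enzymes, and in the controls of that day replicate 1 was the highest for all 9. Counted against the highest control of the day, triadimefon livers had 8, 9 and 9 enzymes above it, and propiconazole livers had 5, 7 and 6. The grid of animals shows how far each of them lay from its control mean. The calls rested on few animals. Without triadimefon replicate 1, 0 of the 6 triadimefon calls were left, and 2 without triadimefon replicate 2, control replicate 2 or control replicate 3. Without control replicate 2, control replicate 3 or propiconazole replicate 2, 1 of 9 was called for propiconazole. A fit on the arrays of each comparison alone called 0 of 9 for either compound, and called 0 genes of all those tested for triadimefon and 8 for propiconazole. Array weights left 2 calls under triadimefon and 0 under propiconazole.

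**Figure D2:**
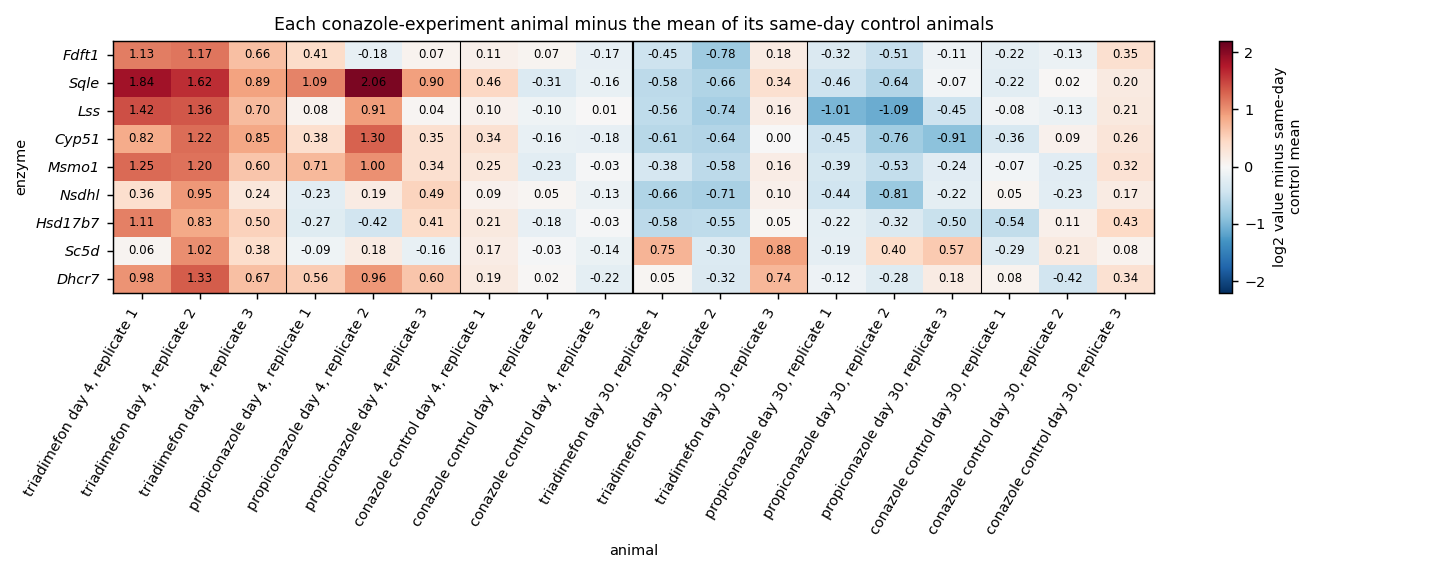
Each animal of the conazole experiment (columns) minus the mean of its same-day control animals, for each enzyme (rows), on the log2 scale; red is above the control mean and blue below it. The triadimefon livers of day 4 are above it for all 9 enzymes, and at day 30 most cells of triadimefon replicates 1 and 2 and of the propiconazole livers are blue.

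How arrays were scaled moved all genes together at day 4. Without any scaling the median of all genes shifted by 0.17 for triadimefon against control and fell by 0.16 for propiconazole against control. Against the median of genes above background, the median of the 9 enzymes was 0.99 higher under triadimefon with quantile normalization and 1.003 higher as deposited, and 0.34 higher under propiconazole with either. Of the genes called under triadimefon, 56.1% were higher, against 93.3% as deposited and 76.9% with median centring, which called 8 and 7 of the 9 enzymes higher. Under propiconazole 53.0% were higher, against 8.63% and 32.8%, and each of those scalings called 1 of the 9. The Actb 3′ excess was 0.76 to 0.94 in the triadimefon livers and 0.80 to 1.296 in the control livers, and its part in the result was not tested.

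Markers of other liver cells moved for a few genes. Under triadimefon at day 4, 2 of 6 endothelial markers were lower (Stab2 by 0.66 and Clec4g by 0.82 below control), and the summed intensity of the 6 was 1177 to 1838 in triadimefon livers against 1575 to 3177 in control livers. The biliary marker Sox9 was 1.66 ± 0.36 higher, above background on 1 of 3 control arrays, and the 4 biliary markers summed to 489.9 to 664 in triadimefon livers against 342 to 410 in control livers. Of 7 Kupffer cell and 6 stellate cell markers 0 were called there, with 0 and 3 at an unadjusted p under 0.05. Under propiconazole at day 4, the biliary markers Epcam (0.38 ± 0.12 higher) and Sox9 (1.06 ± 0.36 higher) rose and the stellate cell marker Reln fell by 0.85. Without propiconazole replicate 2, Sox9 (adjusted p = 0.090) and Reln (0.081) did not pass. Their part in the result was not tested. Markers of adrenal gland and gonad, the other main sites of sterol use, were above background on no conazole-experiment array for any of 4 genes. Among phenobarbital control livers of day 30 their sum ran from 22.6 to 3366, with a median of 36.3. There only Cyp11a1 and Cyp17a1 were above background on no array, and the part of this in the results was not tested.

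The mevalonate part of the pathway comes before these steps. Of its 6 measured enzymes, 2 rose under triadimefon at day 4 and 0 fell, with a median of 0.88 and 5 at an unadjusted p under 0.05. Those that rose were Mvk, mevalonate kinase, by 2.49 ± 0.54 (adjusted p = 0.0078, above background on 1 of 3 control arrays), and Idi1, isopentenyl diphosphate isomerase, by 1.19 ± 0.28 (adjusted p = 0.015). Mvk lost its call without control replicate 2 (1.61, adjusted p = 0.088) or triadimefon replicate 1 (0.059), and Idi1 without control replicate 3 (0.060), triadimefon replicate 1 (0.064) or triadimefon replicate 2 (0.063). Mvd (0.95 ± 0.32, adjusted p = 0.084), Fdps (0.81 ± 0.37, 0.23), Pmvk (0.64 ± 0.34, 0.32) and Hmgcs1 (0.64 ± 0.27, 0.20) did not pass. Under propiconazole 0 of the 6 were called, 0 had an unadjusted p under 0.05 and their median was 0.02.

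Beside the 9 enzymes, 4 further genes of the sterol steps were measured. Cyb5a, the cytochrome b5 that passes electrons to the desaturase and oxidase steps, rose by 0.31 ± 0.06 under triadimefon (adjusted p = 0.0025) and by 0.27 ± 0.06 under propiconazole (adjusted p = 0.0030), though in the values as deposited the propiconazole difference was 0.08 (adjusted p = 0.65) and with median centring the triadimefon difference was 0.18 (adjusted p = 0.43). It was also called higher at day 30, by 0.20 under triadimefon and 0.34 under propiconazole. Under phenobarbital it was called higher on both days, by 0.21 at day 4 and 0.22 at day 30. With each array left out in turn, the triadimefon call of day 30 was lost in 5 of 6 fits (highest adjusted p = 0.16). The phenobarbital call of day 4 was lost in 1 of 10 (0.057), and the propiconazole and phenobarbital calls of day 30 were kept. Lbr, one of the sterol reductases that follow Cyp51, rose by 0.58 ± 0.17 under propiconazole (adjusted p = 0.020), but without replicate 2 the difference was 0.23 (adjusted p = 0.26). Ebp, the sterol isomerase, fell by 1.09 under propiconazole (adjusted p = 0.046), and without replicate 2 the difference was -0.10 (adjusted p = 0.65). Tm7sf2, the other reductase at that step, was called under neither compound.

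Genes that sense or move sterol did not follow the enzymes in number. Of 9 genes of SREBP2 control and sterol uptake, 0 rose under triadimefon at day 4 and 1 fell, Mylip, the ubiquitin ligase that marks the LDL receptor for degradation, by 1.02 (adjusted p = 0.0044; -0.81 and 0.0501 without triadimefon replicate 1). Srebf2, which encodes SREBP2, differed by 0.40 ± 0.51 (adjusted p = 0.76) and Insig1, which retains it, by 0.08 ± 0.24 (adjusted p = 0.94). Under propiconazole 1 rose, the protease gene Mbtps2 (0.54 ± 0.14, adjusted p = 0.0081, but 0.35 and 0.082 without replicate 2). There 2 fell, Scap, the escort of SREBP2, by 1.09 (adjusted p = 0.0022), and Stard4, a sterol carrier, by 0.60 (adjusted p = 0.0059). Scap read -0.51 (adjusted p = 0.0024) without replicate 2. Of 6 genes of sterol efflux and esterification, 3 fell under propiconazole and 0 were called under triadimefon, where 1 had an unadjusted p under 0.05. Those that fell were Abcg5, a subunit of the canalicular sterol exporter, by 0.89 (adjusted p = 0.0055; it also fell under phenobarbital at day 4, by 0.73), the oxysterol receptor Nr1h3 by 0.77 (adjusted p = 0.0020; -0.54 and 0.025 without replicate 2) and Lcat, the plasma cholesterol acyltransferase, by 0.51 (adjusted p = 0.029). Lcat lost its call without replicate 2 (-0.18, adjusted p = 0.37), without control replicate 2 (adjusted p = 0.12) and without control replicate 3 (0.050). The phenobarbital call of Abcg5 was lost in 6 of 10 fits that each left out 1 array (highest adjusted p = 0.11). Among 7 fatty acid synthesis genes, the elongase Elovl6 rose under triadimefon (1.37 ± 0.33, adjusted p = 0.017) and propiconazole (1.11 ± 0.33, adjusted p = 0.024; 1.07 and 0.074 without replicate 2), and Srebf1 fell by 0.86 under propiconazole (adjusted p = 0.011).

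The promoters of the members were read for the letters that SREBP2 and its usual partners are known to bind. RefSeq sequences of the mouse build GRCm38.p6, from 250 bases before to 50 after each start, held 7 of the 9 members, and Fdft1 and Sqle are named only. The sterol element core TCACNCCAC matched in 0 of 9 promoters listed for them, and in 1.24% of 32851 promoters of all genes. At so low a share, 0 of 9 cannot set these promoters apart from others. Other forms of the element were not searched. CCAAT, which the factor NF-Y binds, matched in 7 of the 9 promoters listed for these 7 genes and in 37.4% of all promoters, and GGGCGG, which Sp1 binds, in 8 of 9 and in 35.7%. Of the 3 starts listed for Dhcr7, 2 had no CCAAT and 1 had no GGGCGG. Both strands were searched. The nearest CCAAT lay 62 bases before the start in Lss, 29 in Cyp51, 55 in Msmo1 and 49 in Dhcr7. The Dhcr7 start measured and shown was chosen because it holds CCAAT, which its other listed starts lack. Stretches of 150 bases from the promoters of 4 members that rose are shown 5′ to 3′ on the gene's strand, with CCAAT and GGGCGG on either strand in capitals, for Lss (chr10:76531455-76531604, plus strand), Cyp51 (chr5:4104698-4104847, minus strand), Msmo1 (chr8:64733579-64733728, minus strand) and Dhcr7 (chr7:143830064-143830213, plus strand, 1 of 3 listed starts).
Lss: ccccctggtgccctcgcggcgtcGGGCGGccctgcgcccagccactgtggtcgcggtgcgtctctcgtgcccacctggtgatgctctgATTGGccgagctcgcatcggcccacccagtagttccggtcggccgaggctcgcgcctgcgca
Cyp51: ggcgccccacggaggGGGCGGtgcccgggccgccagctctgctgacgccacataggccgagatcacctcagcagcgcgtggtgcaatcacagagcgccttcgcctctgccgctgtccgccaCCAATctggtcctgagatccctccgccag
Msmo1: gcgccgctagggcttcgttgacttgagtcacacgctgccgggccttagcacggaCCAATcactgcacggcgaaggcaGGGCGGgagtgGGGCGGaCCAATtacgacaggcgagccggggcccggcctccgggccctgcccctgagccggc
Dhcr7: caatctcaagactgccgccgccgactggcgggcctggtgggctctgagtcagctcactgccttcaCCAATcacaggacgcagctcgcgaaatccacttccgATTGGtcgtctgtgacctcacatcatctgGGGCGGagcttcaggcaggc
In Msmo1 and Dhcr7 the stretch holds 2 CCAAT matches, and in Lss and Cyp51 it holds 1. A match is a description of the letters and not a site of binding.

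Triadimefon and propiconazole were then set against each other at the same day, although their doses were not matched. At day 4 all 9 enzymes had the higher mean under triadimefon, with 0 called, where 1.84% of all genes were called. At an unadjusted p under 0.05, 3 of the 9 passed. Hsd17b7 (0.91 ± 0.27, 95% interval 0.35 to 1.46, adjusted p = 0.075), Fdft1 (0.89 ± 0.25, 0.37 to 1.41, 0.063) and Lss (0.82 ± 0.32, 0.16 to 1.48, 0.15) had the widest differences. For Hsd17b7 and Fdft1 every triadimefon liver was above every propiconazole liver, which held for 3.49% of all genes. For Sqle the difference was 0.10 ± 0.30, with an interval of -0.52 to 0.72, and for Cyp51 0.29 ± 0.25, with -0.21 to 0.79. Msmo1 (0.34 ± 0.23), Nsdhl (0.37 ± 0.23), Sc5d (0.51 ± 0.31) and Dhcr7 (0.29 ± 0.24) lay between, and every one of their intervals held 0. Without propiconazole replicate 2, 0 were called. Lss then had the widest difference (1.10 ± 0.35), above Fdft1 (0.75 ± 0.28) and Hsd17b7 (0.74 ± 0.30), and the Sqle difference was 0.45 ± 0.31 and the Cyp51 difference 0.60 ± 0.25. Without propiconazole replicate 1 or 3, 1 and 2 were called. The count changed with the scaling. As deposited, where the median of all genes shifts by 0.38, 8 of the 9 were called higher, and with median centring 3. Of all genes called, 46.6% were higher in triadimefon livers, against 98.4% as deposited and 64.4% with median centring. At day 30 the differences were -0.03 to 0.47, with 0 called, 0 at an unadjusted p under 0.05, and 3.9% of all genes called.

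At day 30 none of the 9 enzymes passed the test for either fungicide. Triadimefon gave changes of -0.42 to 0.44, with 0 members at an unadjusted p under 0.05 and 5.4% of all genes called. Propiconazole gave -0.85 to 0.26, with 3 members at an unadjusted p under 0.05 and 10.8% of all genes called. For 2 of the 9 all propiconazole livers were below all control livers, as for 12.4% of all genes. Cyp51 read 9.60, 9.57 and 10.21 in triadimefon livers, 9.76, 9.45 and 9.30 in propiconazole livers, and 9.85, 10.31 and 10.48 in control livers. Under propiconazole all its animals were below the controls, and the change was -0.71 ± 0.25 (adjusted p = 0.060). With propiconazole day 4 replicate 2 kept out of the shared estimate of the spread, the adjusted p was 0.028. Lss read 9.19, 9.02 and 9.92 in triadimefon livers, 8.74, 8.67 and 9.30 in propiconazole livers, and 9.68, 9.62 and 9.97 in control livers. Its propiconazole change was -0.85 ± 0.32 (adjusted p = 0.088), also with no overlap. Sqle read 10.05, 9.98 and 10.98 in triadimefon livers, 10.18, 9.999 and 10.57 in propiconazole livers, and 10.41, 10.66 and 10.84 in control livers, so the groups overlapped. In triadimefon livers replicate 3 was the highest for all 9 enzymes and replicate 2 the lowest for 8. In those livers 3 of 7 Kupffer cell and macrophage markers rose, Adgre1 by 1.13 ± 0.23 (adjusted p = 0.0033), Csf1r by 0.90 ± 0.26 (0.039) and Marco (adjusted p = 0.013), the last above background on 2 of 3 triadimefon arrays and 0 of 3 control arrays. All 7 had an unadjusted p under 0.05. The 7 summed to 4684 to 13955 there, against 3959.5 to 5338 in control livers, and 2 of 6 endothelial markers, Lyve1 and Cdh5, rose too. Under propiconazole at day 30, 0 of the 7 Kupffer cell markers were called and 3 had an unadjusted p under 0.05, with sums of 4645 to 8728, and the stellate cell markers Lrat and Des fell and the biliary markers Epcam and Sox9 rose. The part of these markers in the enzyme levels was not tested.

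**Figure D3:**
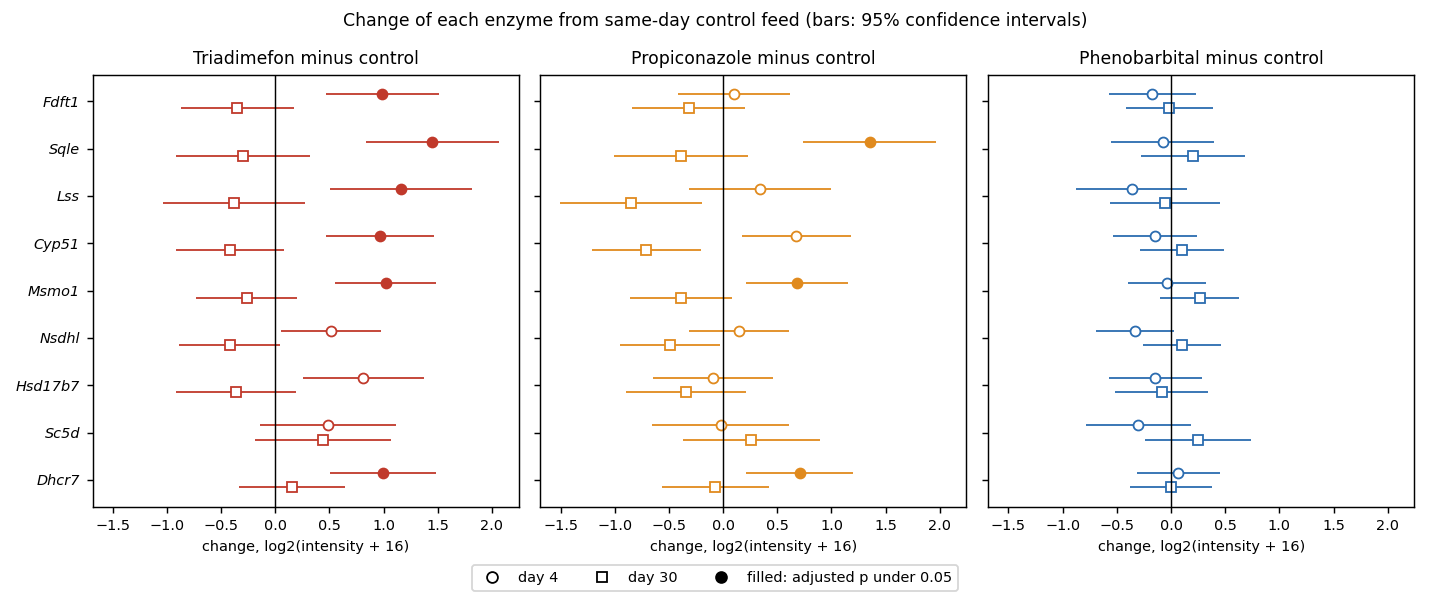
Change of each enzyme (rows) from same-day control feed on the log2 scale, for triadimefon, propiconazole and phenobarbital, with 95% confidence intervals. Circles are day 4 and squares day 30, and filled symbols passed an adjusted p of 0.05: 6 under triadimefon and 3 under propiconazole, all at day 4.

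The change from control was then compared between day 30 and day 4. For triadimefon the difference between the days' changes was called for 3 of 9, Sqle at -1.75 ± 0.43 (adjusted p = 0.034), Cyp51 at -1.38 ± 0.35 (adjusted p = 0.038) and Msmo1 at -1.28 ± 0.33 (adjusted p = 0.039), where 0.818% of all genes were called lower and 1.31% either way. All 9 members were below 0, and 8 had an unadjusted p under 0.05. For propiconazole 2 of 9 were called, Sqle at -1.74 ± 0.43 (adjusted p = 0.029) and Cyp51 at -1.38 ± 0.35 (adjusted p = 0.033), against 1.24% lower and 1.95% either way over all genes. Here 8 of the 9 members were below 0, and Sc5d was above it at 0.28. The 2 fungicides share control livers, so these values are not independent. The Actb 3′ excess also went with the day, at 0.76 to 0.94 in triadimefon livers of day 4 against 0.42 to 0.47 at day 30. It differed between the control days too, as given below, and its part was not tested. Of all genes called, 37.5% were higher for triadimefon (10.1% as deposited, 25.6% with median centring) and 36.5% for propiconazole (77.4% and 53.3%). For propiconazole those scalings left 0 of the 2 calls. Leaving out animals changed the count. For triadimefon it was 0 without day 4 control replicate 2 or 3, day 4 triadimefon replicate 1 or 2, day 30 control replicate 3 or day 30 triadimefon replicate 1 or 2, and 1 without day 30 control replicate 2. It was 5 with propiconazole day 4 replicate 2 out of the shared fit. For propiconazole it was 0 without day 4 control replicate 2 or 3, day 4 propiconazole replicate 2 or day 30 control replicate 2 or 3, and 1 without day 30 propiconazole replicate 2 or 3.

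The control livers of the conazole experiment also differed between the days. Their Actb 3′ excess was 1.296, 0.80 and 1.10 at day 4, against 0.37, 0.37 and 0.37 at day 30. Their deposited medians were 20.4, 24.1 and 25.2 at day 4, against 33.8, 29.1 and 27.7 at day 30. The part of these in the differences between days was not tested. Sqle read 10.41, 10.66 and 10.84 in control livers of day 30, against 9.98, 9.21 and 9.35 in those of day 4, a rise of 1.12 ± 0.30 (adjusted p = 0.024). Msmo1 read 11.62, 11.44 and 12.01 at day 30, against 11.08, 10.61 and 10.81 at day 4, a rise of 0.86 ± 0.23 (adjusted p = 0.023). These 2 of 9 were called, where 2.78% of all genes were called higher and 5.32% either way, and all 9 members had the higher mean at day 30. For 5 of the 9 the days did not overlap, as for 10.7% of all genes. Among the other listed genes, Alas1, the first enzyme of heme synthesis and a CAR target, rose by 2.73 ± 0.43 (adjusted p = 0.00024), Mvk by 2.08 ± 0.54 (adjusted p = 0.018) and Tm7sf2 by 1.18 ± 0.29 (adjusted p = 0.013). Without day 4 control replicate 2, Mvk (1.204, adjusted p = 0.19) and Tm7sf2 (0.99, adjusted p = 0.083) did not pass, and Mvk did not without day 30 control replicate 3 either (adjusted p = 0.063). The count of members called was 0 without day 4 control replicate 2 or 3 or day 30 control replicate 3, and 1 without day 30 control replicate 1 or 2. It was 0 with median centring and 1 as deposited. Of all genes called, 52.3% were higher at day 30, against 77.8% as deposited and 21.2% with median centring. In the phenobarbital experiment 0 of 9 were called between the control days, and 0 had an unadjusted p under 0.05, with 0 genes called in all. Its Sqle levels were 10.64, 10.25, 10.20, 11.07 and 10.41 in control livers of day 30, and 10.71, 10.64, 11.02, 10.21 and 9.87 in those of day 4. Levels across the 2 experiments are set side by side only, since the arrays were of separate experiments.

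**Figure D4:**
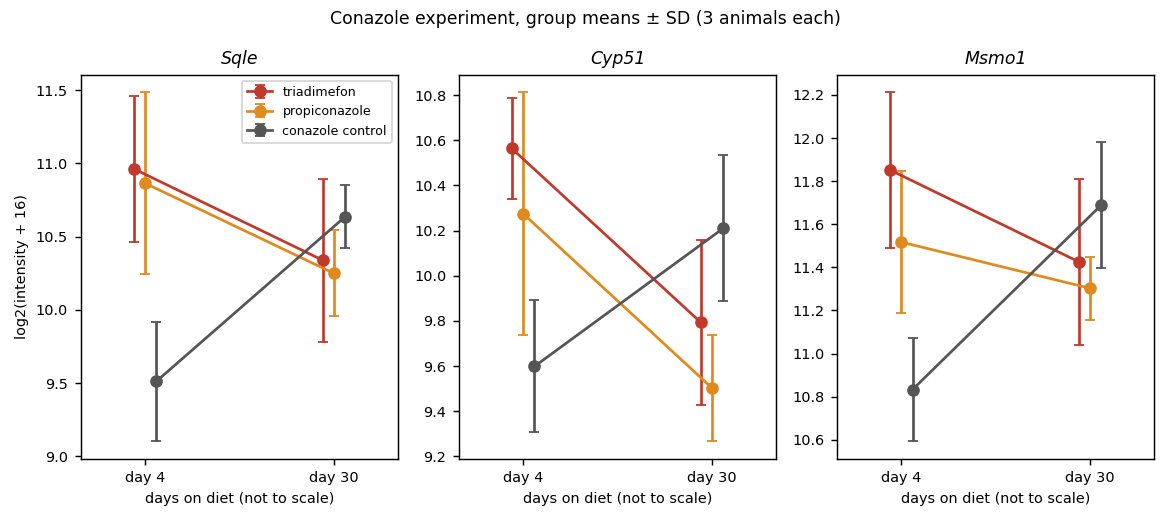
Mean level with SD (3 animals each) of Sqle, Cyp51 and Msmo1 at day 4 and day 30 for triadimefon, propiconazole and conazole control feed, on the log2 scale. The means of both fungicides lie above the control mean at day 4 and below it at day 30, while the control mean is higher at day 30 than at day 4.

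Phenobarbital left the 9 enzymes uncalled on both days. At day 4 the changes were -0.36 to 0.07 and at day 30 -0.09 to 0.26, with 0 called and 0 at an unadjusted p under 0.05 on either day. Of all genes, 0.677% and 0.479% were called. Cyp51 at day 4 read 9.95, 9.37, 9.21, 10.09 and 9.80 in phenobarbital livers, and 10.11, 10.05, 9.72, 9.67 and 9.63 in control livers, and the groups overlapped. Sqle at day 4 read 10.49, 10.81, 10.22, 10.46 and 10.08 in phenobarbital livers, inside the range of its controls. The test of the difference between compounds took each fungicide's change minus the phenobarbital change. At day 4 it called 1 of 9 for propiconazole, Sqle at 1.43 ± 0.38 (adjusted p = 0.046), where 0.97% of all genes were called higher and 1.83% either way. That call was lost without propiconazole replicate 2, without conazole control replicate 2 or 3, and, each left out in turn, without phenobarbital replicate 1, 3, 4 or 5 or phenobarbital control replicate 1, 2, 3 or 4 of day 4. For triadimefon all 9 differences were above 0, at 0.79 to 1.53, with 0 called (lowest adjusted p = 0.093), 8 at an unadjusted p under 0.05 and 0.0451% of all genes called. At day 30, 0 were called for either, with 3 and 0 at an unadjusted p under 0.05 for propiconazole and triadimefon, and 1.92% and 0.451% of all genes called. The difference of the phenobarbital change between days was called for 0 of 9, with 0 at an unadjusted p under 0.05 and 0.00564% of all genes called.

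Across all 10 groups, triadimefon day 4 held the highest mean for 8 of the 9 enzymes, Nsdhl being the exception, with phenobarbital day 30 the highest at 10.75 ± 0.17. Conazole control day 4 held the lowest mean for 5, Fdft1, Sqle, Msmo1, Nsdhl and Dhcr7. For Sqle the order ran from triadimefon day 4 (10.96 ± 0.50, SD, n = 3) through propiconazole day 4 (10.86 ± 0.62, n = 3), phenobarbital day 30 (10.72 ± 0.13, n = 5), conazole control day 30 (10.64 ± 0.21, n = 3), phenobarbital control day 30 (10.51 ± 0.36, n = 5), phenobarbital control day 4 (10.49 ± 0.45, n = 5), phenobarbital day 4 (10.41 ± 0.28, n = 5), triadimefon day 30 (10.34 ± 0.56, n = 3) and propiconazole day 30 (10.25 ± 0.29, n = 3) to conazole control day 4 (9.51 ± 0.41, n = 3). Only the last gap, of 0.74, was wider than the larger SD of its neighbours. For Cyp51 the means ran from 10.56 ± 0.22 in triadimefon day 4 to 9.50 ± 0.23 in propiconazole day 30, with conazole control day 4 next to last at 9.60 ± 0.29, and 0 of 9 gaps between neighbours exceeded the SD. This was so of 1 gap of 9 for Fdft1 and for Msmo1, and of none for Lss, Nsdhl, Hsd17b7, Sc5d and Dhcr7.

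Within groups the enzymes varied together to unlike degrees. After taking each array minus its group mean, the correlation of each enzyme with the mean of the other 8 over 38 arrays was 0.85 for Msmo1, 0.84 for Sqle, 0.82 for Lss, 0.81 for Dhcr7, 0.79 for Nsdhl and 0.76 for Fdft1. It was lower for Hsd17b7 (0.56), Cyp51 (0.48) and Sc5d (0.41). These points share the array and its scaling, so the values are a description. In the same sense the genes outside the 9 whose deviation from control was most like the members' mean, among 9020 genes over 38 arrays, were Idi1 (r = 0.94), Hmgcs1 (0.83), Pmvk (0.76), Tmem97 (0.74) and Pgs1 (0.72). The first 3 are mevalonate-part enzymes. Mvd stood at 0.71 and Lbr at 0.70, while Tm7sf2 stood at 0.52, Cyb5a at 0.26 and Ebp at -0.06. The ranked genes of SREBP2 control and uptake ran from -0.56 for Mylip to 0.55 for Insig1, with Srebf2 at -0.05.

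The 13 other probe sets of the members gave a partly different picture. Of these, 6 were near or below background, above it on at most 2 of 38 arrays, among them 2 for Fdft1 and 1 each for Lss, Cyp51, Msmo1 and Hsd17b7. In a fit over all probe sets at day 4 of triadimefon, Sc5d was called by the dimmest of its 3 probe sets, with a mean of 8.98 (0.97 ± 0.23, adjusted p = 0.019), though not by its main probe set or by the remaining one (0.53 ± 0.20, adjusted p = 0.16). Cyp51's second probe set above background differed by 0.79 ± 0.33 (adjusted p = 0.21), that of Fdft1 by 1.07 ± 0.34 (adjusted p = 0.075) and that of Lss by 0.59 ± 0.34 (adjusted p = 0.41). Both further probe sets of Hsd17b7 above background differed by 0.52 ± 0.29 and 0.26 ± 0.35. Each of these differences had the sign of the main probe set. The main probe set of Lss is of a kind (suffix _s_at) that can match more than 1 gene, so its values carry that uncertainty.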

How the data were processed

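Total RNA from frozen liver was extracted with Tri Reagent, cleaned on RNeasy columns, amplified, labelled with biotin and hybridised to Affymetrix mouse 430_2 arrays, per the labels' protocols. The deposited values are linear intensity values, 1 per probe set and array (45101 probe sets, 21.2% of values below 0), made by the authors with software not given in the sources used here. After quantile normalization, negative values became 0 and the scale was log2(value + 16). Of the probe sets, 34958 are annotated to 1 symbol, 932 to several and 9211 are unlisted; each gene is represented by its brightest probe set on average, leaving 17729 of 18194 after 465 constant ones were dropped. Background, 6.13 on the log2 scale (intensity 54.2), is the 95th percentile of 39 olfactory receptor genes. One model over all 38 arrays (limma 3.58.1 in R 4.3.3, lmFit and eBayes with an intensity trend, two-sided, Benjamini-Hochberg over all genes) gave every test. Its 10 group means left 28 residual degrees of freedom, so groups shared 1 spread, and 17 comparisons were made. The number of arrays limits the precision. Labels call the samples biological replicates. No arrays were identical. Alternatives were other scaling, a pseudocount of 64, a background filter, all probe sets, separate fits, the replicate block, array weights and each array left out; leaving propiconazole day 4 replicate 2 out of the shared fit was added after its quality values were seen. The test was tried on simulated data with independent noise and an equal spread in every group, so that trial cannot speak for arrays of unequal spread. Members and lists were chosen with earlier results of these data known. All members are named, with up to 4 called genes of each list where a member is called and the 5 genes most like the members.

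Replicate numbers were not taken to pair the samples. Same-numbered arrays of different groups correlated at -0.11 to 0.16 in their deviations from group means (28 pairs), against -0.23 to 0.19 for other pairs (76). In the conazole experiment their mean was 0.04 against -0.02 at day 4 and 0.05 against -0.03 at day 30. In the phenobarbital experiment it was -0.05 against 0.01 and 0.04 against -0.01. Overlapping ranges cannot exclude a weak pairing.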

Additional observations from a re-analysis of the deposited data

Results flagged for a closer look

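In groups of 5, a sample was looked at again when its gap to the nearest other exceeded Dixon's critical value. Chance gives about 1 in 20 for each enzyme in each group, and 4 of 36 such combinations gave a sample. The enzymes vary together within groups, so the combinations are not independent. Fdft1 at 10.89, Cyp51 at 10.44 and Hsd17b7 at 9.80 were all in replicate 4 of phenobarbital control day 30, which was the highest of its group for 7 of the 9 enzymes. Hsd17b7 at 9.83 was in replicate 3 of phenobarbital control day 4, also the highest for 7 of 9.

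The change from control differed between days, by the test of the difference itself, for 5 values. For triadimefon, day 30 minus day 4 was -1.75 for Sqle, -1.38 for Cyp51 and -1.28 for Msmo1. For propiconazole it was -1.74 for Sqle and -1.38 for Cyp51. The propiconazole change of Sqle at day 4 also differed from the phenobarbital change, by 1.43.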

How the results depend on the processing

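Of 782 values of single genes that were called, each under an alternative, 502 kept direction and side of the threshold, 280 kept only direction and 0 reversed. Uncalled members are not in that count, and Hsd17b7 under propiconazole at day 4 turned sign without replicate 2. Members called out of 9 were as follows. Propiconazole at day 4 had 3, but 1 as deposited, with median centring or with all probe sets, and 0 with only the arrays compared or array weights (1 to 4 leaving out an array). Triadimefon at day 4 had 6, but 0 with only the arrays compared and 2 with array weights (0 to 6). Triadimefon against propiconazole at day 4 had 0, but 8 as deposited and 3 with median centring (0 to 2). Propiconazole at day 30 had 0, but 1 with only genes above background, and 1 with propiconazole day 4 replicate 2 out of the shared fit (0 to 1). The propiconazole difference between days had 2, but 0 as deposited, with median centring, only the arrays compared or array weights (0 to 3). The triadimefon difference between days had 3, but 5 as deposited or with that replicate out of the shared fit, and 0 with only the arrays compared or array weights (0 to 4). Propiconazole minus phenobarbital at day 4 had 1, but 0 as deposited, with median centring, all probe sets, only the arrays compared or array weights (0 to 1). Triadimefon minus phenobarbital at day 4 had 0, but 5 as deposited and 1 with that replicate out of the shared fit (0 to 1). Conazole control day 30 against day 4 had 2, but 1 as deposited or with array weights, and 0 with median centring or only the arrays compared (0 to 2). The other comparisons had 0 throughout. Fits on only the arrays compared have fewer samples and take their spread from those arrays alone. Array weights, lower where an array varies more, were 0.07 to 0.95 in the conazole experiment and 1.11 to 2.13 in the phenobarbital experiment. The part of each of these in the counts, and other causes, were not tested.

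The replicate numbers were not taken to pair the samples. With the replicate block the propiconazole difference between days had 1 call, propiconazole at day 4 had 3 and triadimefon at day 4 had 5.

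Group sizes of 3 limit the precision, the triazole doses were not matched, and several member genes rest on 1 probe set.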
